A study of Mus musculus with 14 samples.

Results

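The genes described here are 10 members of the transforming growth factor beta (TGF-beta) system: the ligand genes Tgfb1, Tgfb2 and Tgfb3, the receptor genes Tgfbr1 and Tgfbr2, the co-receptor genes Tgfbr3 and Eng, the latency protein genes Ltbp1 and Ltbp3, and the inhibitor gene Smad7. They were chosen by name, as 10 of the 47729 genes of the count table, and with earlier results of these data known. All 10 were among the 15015 genes that passed the filter on low counts. RNA was sequenced in 14 libraries of cells sorted from the knee synovium, the lining of the joint, of C57BL6 mice aged 16 weeks. Every sort was for cells without TER119 (a red cell marker), CD31 (endothelial) and CD45 (leukocyte) and with CD51, the integrin alpha V chain. Libraries 1 to 4 hold CD200+CD105- cells of non-immunized mice, which received phosphate buffered saline in place of antigen. Libraries 5 to 9 hold CD200+CD105- cells from antigen-induced arthritis, a joint inflammation produced by immunizing mice with methylated bovine serum albumin in complete Freund's adjuvant and later injecting that protein into the joint. Libraries 10 to 14 hold CD200-CD105+ cells of mice with the same arthritis. The joints were harvested on day 10 after that injection, and 200 to 500 cells entered each library. No CD105+ sample of non-immunized mice is analysed here, and what arthritis does to that phenotype was not measured. Below, the groups are called non-immunized CD200+, arthritic CD200+ and CD105+. The labels do not say whether libraries of a group came from separate animals, so the p-values measure the spread between these libraries.

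TGF-beta is secreted in a latent form, in which its own propeptide holds the ligand inactive and a latent TGF-beta binding protein (LTBP) ties the complex to the extracellular matrix. Once released, for example by integrins, the ligand binds the type II receptor TGFBR2, which phosphorylates the type I receptor TGFBR1, and the latter passes the signal to SMAD2 and SMAD3. Betaglycan (TGFBR3) presents ligands to the signalling receptors and endoglin (ENG) modulates them, while SMAD7 is induced by the signal and blocks it. In bone and joint tissue the pathway is known for its part in recruiting skeletal progenitor cells and in making cartilage and bone matrix. Endoglin is the CD105 protein itself, so Eng is the gene of an antigen on which the cells were sorted.

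Promoter sequences are shown for 3 genes that fell together in CD105+ cells, Tgfb2, Tgfbr1 and Ltbp1, and for Tgfb1, which did not pass the test, to show the reference letters at their starts. Among the members with a kept window, these are the ones that held a match to a searched motif. Tgfbr2 and Ltbp3, which also fell, held none and are not printed. Each is the 250 bases before the first RefSeq start of the gene (build GRCm38.p6), 5′ to 3′ on the gene's strand, and capitals mark matches to a searched motif on either strand. After the entries were filtered, a promoter window was kept for 7 of the 10 members, which does not show that RefSeq lacks the other 3.
Tgfb2 (chr1:186705990-186706239, minus strand): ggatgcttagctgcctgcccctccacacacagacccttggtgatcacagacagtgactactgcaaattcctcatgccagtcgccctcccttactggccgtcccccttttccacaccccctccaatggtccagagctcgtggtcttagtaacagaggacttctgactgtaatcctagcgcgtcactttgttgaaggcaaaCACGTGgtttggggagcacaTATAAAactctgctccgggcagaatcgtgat
Tgfbr1 (chr4:47352972-47353221, plus strand): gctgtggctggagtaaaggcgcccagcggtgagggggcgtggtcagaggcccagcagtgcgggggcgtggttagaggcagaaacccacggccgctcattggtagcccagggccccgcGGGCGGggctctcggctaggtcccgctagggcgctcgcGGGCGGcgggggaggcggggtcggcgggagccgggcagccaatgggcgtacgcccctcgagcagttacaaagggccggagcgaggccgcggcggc
Ltbp1 (chr17:75005279-75005528, plus strand): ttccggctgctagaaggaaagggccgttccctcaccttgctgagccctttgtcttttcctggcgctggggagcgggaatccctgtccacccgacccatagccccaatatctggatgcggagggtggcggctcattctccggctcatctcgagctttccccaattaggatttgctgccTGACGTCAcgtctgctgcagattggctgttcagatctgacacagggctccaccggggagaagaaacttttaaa
Tgfb1 (chr7:25686752-25687001, plus strand): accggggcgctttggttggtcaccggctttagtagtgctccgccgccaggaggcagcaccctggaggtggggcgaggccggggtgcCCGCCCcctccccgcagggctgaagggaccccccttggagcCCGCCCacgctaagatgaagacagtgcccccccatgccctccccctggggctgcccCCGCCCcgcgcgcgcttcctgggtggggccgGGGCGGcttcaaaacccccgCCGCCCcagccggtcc
The motifs searched were the GC box GGGCGG, the AP-1 site TGANTCA, the cyclic AMP element TGACGTCA, the SMAD palindrome GTCTAGAC, the E-box CACGTG, the TATA box TATAAA and the CAGA box AGCCAGACA. None of these matches overlaps another. Tgfb2 held an E-box 46 bases and a TATA box 26 bases before its start, in a window that shares 167 bases with an exon of the opposite-strand gene Gm29491. Tgfbr1 held 2 GC boxes, 128 and 90 bases before its start. Ltbp1 held 1 cyclic AMP element 66 bases before its start. Tgfb1 held 5 GC boxes and no TATA box. Among all 32851 promoters of the table, a window of this length held a GC box in 32.7%, an AP-1 site in 6.75%, the cyclic AMP element in 1.55%, the SMAD palindrome in 0.167%, the E-box in 6.02%, the TATA box in 12.4% and the CAGA box in 0.301%. The first windows of Tgfbr2, Ltbp3 and Eng held none of the motifs. These matches describe letters in the reference genome, and no binding was measured.

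Libraries held 12177437 to 40331071 counts, of which 2919666 to 18553803 fell on genes and the rest on ERCC spike-ins, synthetic RNAs added to each lysate. Levels are given as CPM, the gene counts of each library scaled to a common total after TMM. At these depths 3 counts in a library equal 0.170 to 0.910 CPM, the limit that a count of 0 allows. Libraries 2, 5 and 6 stood apart in that spike-ins took over 80% of their counts (85.4%, 87.4% and 92.0%, against 20.3% to 55.6% in the other 11). Results are given below with and without these 3 libraries. In such sorted samples, fewer cells of a type and less RNA per cell cannot be told apart.

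In arthritis, CD105+ cells held a smaller share of mRNA than CD200+ cells for both signalling receptors, for betaglycan, for both LTBPs and for the ligand gene Tgfb2. These 6 of the 10 members fell past the threshold of edgeR's quasi-likelihood test (Benjamini-Hochberg adjusted p under 0.05) with TMM, by 4.88- to 41.7-fold, and 0 of 10 rose. Of all 15015 genes tested, 6.48% fell and 4.79% rose. The same 6 members did not overlap between the 2 groups of 5 libraries, against 6.33% of all genes that lay lower without overlap. The median log2 change was -2.45 over the 10 members and -0.05 over all genes. These counts are relative to the rest of the transcriptome, which is what TMM scales by. With library sizes taken from the spike-ins, which compare RNA per sample, 0 of 10 members passed the test, where 2.60% of all genes rose and 1.03% fell. Tgfb2 alone of the 6 kept groups without overlap there, by a narrow gap. On that scale it stood at 7.7445 in CD105+ library 13 and at 7.8925 in arthritic CD200+ library 6, one of those over 80% spike-ins. Within the CD200+ phenotype, 0 of 10 members passed the test between arthritic and non-immunized mice, as did 0% of all genes, 0 of 15015, with 915 genes but 0 members at an unadjusted p under 0.05. DESeq2 called 343 genes and limma voom 4 there, 0 of them members.

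**Figure D1:**
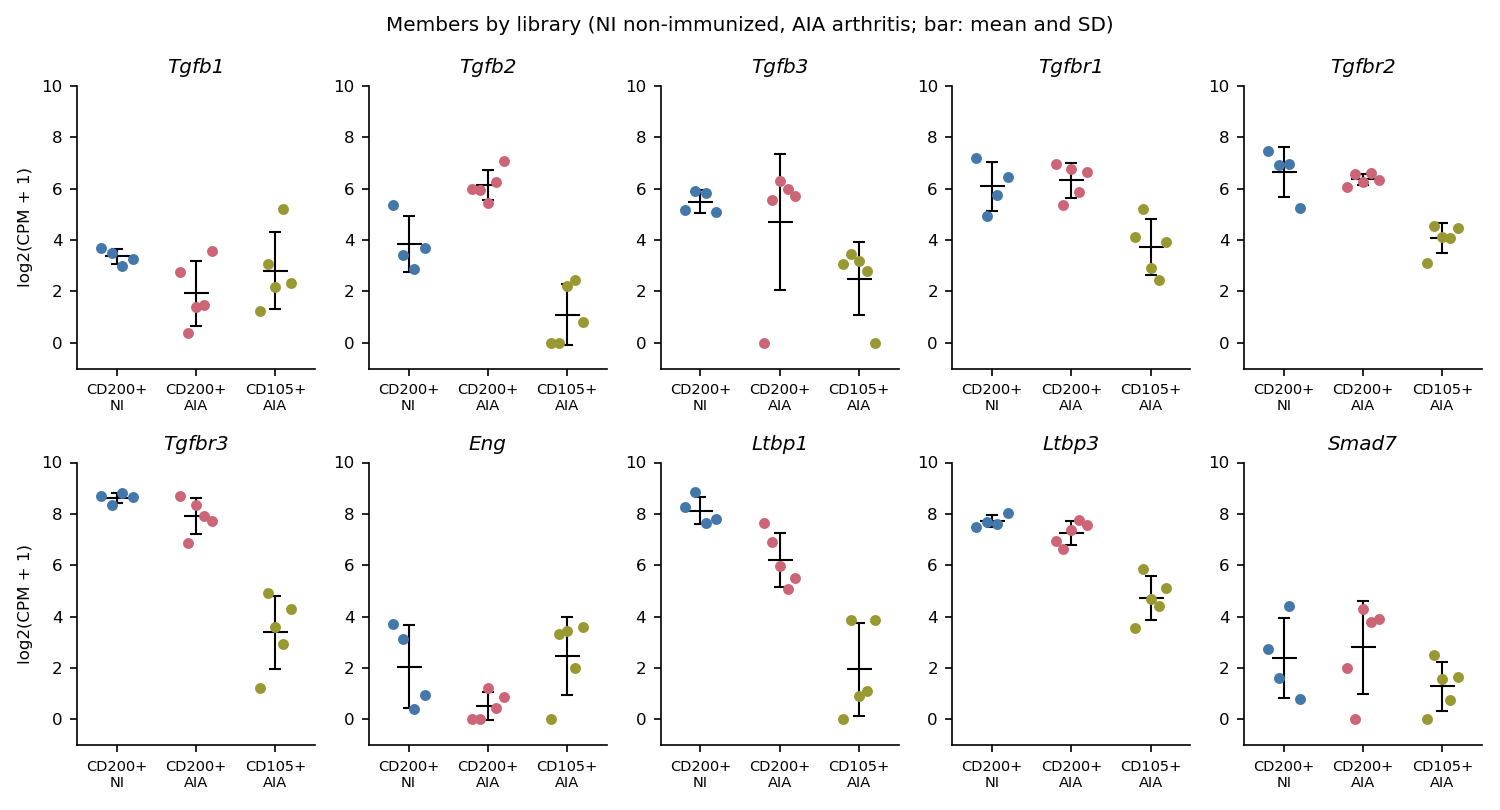
Level of each member in every library on a log2(CPM + 1) scale (y axis), by group (x axis: CD200+ non-immunized, CD200+ arthritis, CD105+ arthritis); points are libraries in the order of their numbers, and bars show the group's mean and SD on that scale (n = 4, 5 and 5). Tgfb2, Tgfbr1, Tgfbr2, Tgfbr3, Ltbp1 and Ltbp3 are lower in every CD105+ library than in every arthritic CD200+ library on this TMM scale.

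Among the ligands, Tgfb2 moved most. Tgfb2 (ENSMUSG00000039239, GRCm38 chromosome 1, 186622792 to 186705989, minus strand) encodes TGF-beta 2, a ligand that depends on betaglycan for efficient binding to TGFBR2. Its level was 40.8, 9.67, 6.43 and 11.8 CPM in non-immunized CD200+ libraries 1 to 4, 62.6, 60.6, 42.7, 76.1 and 134 CPM in arthritic CD200+ libraries 5 to 9, and 0, 0, 3.62, 4.49 and 0.735 CPM in CD105+ libraries 10 to 14. The arthritic CD200+ libraries were thus the highest and the CD105+ libraries the lowest, with no overlap between any 2 groups. The means were 17.2 ± 15.9 (SD, n = 4), 75.2 ± 34.9 (SD, n = 5) and 1.77 ± 2.13 CPM (SD, n = 5). Between the phenotypes in arthritis, Tgfb2 fell by 5.38 on the log2 scale (SE 1.29, edgeR adjusted p = 0.0169), a call lost with spike-in library sizes (-4.77, adjusted p = 0.0953).

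Between arthritic and non-immunized CD200+ cells, Tgfb2 was the only 1 of the 10 members whose groups did not overlap, and it did not pass the test. Its log2 difference was 2.13 (SE 1.21, unadjusted p = 0.0996, edgeR adjusted p = 0.996), with a higher value in 5 of 5 arthritic libraries than in any non-immunized one. Of all genes, 1.11% lay higher and 1.18% lower without overlap. That separation was narrow, 42.7 CPM in arthritic library 7 against 40.8 CPM in non-immunized library 1, and the groups overlapped when RLE factors replaced TMM and when library sizes were taken from the spike-ins.

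Tgfb3 (ENSMUSG00000021253, chromosome 12, 86056745 to 86079041, minus strand) encodes TGF-beta 3. It was measured at 34.6, 59.0, 56.5 and 32.8 CPM in non-immunized CD200+ cells, 0, 46.4, 78.5, 62.5 and 51.0 CPM in arthritic CD200+ cells, and 7.32, 9.97, 8.11, 5.91 and 0 CPM in CD105+ cells. Without library 5, which held 0 counts (3 counts would be 0.604 CPM) and is one of those over 80% spike-ins, every arthritic CD200+ library lay above every CD105+ library. With all libraries the difference of -2.93 on the log2 scale (SE 1.27) did not pass the test (edgeR adjusted p = 0.155), and without library 5 it did (-3.19, adjusted p = 0.0489). In arthritic and non-immunized CD200+ cells the values overlapped (log2 difference 0.06, SE 1.26, edgeR adjusted p = 1.0), and this sign turned with RLE factors.

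Tgfb1 (ENSMUSG00000002603, chromosome 7, 25687002 to 25705077, plus strand) encodes TGF-beta 1, the isoform best known from immune and matrix biology. Its values were low in every group: 11.9, 10.2, 7.06 and 8.62 CPM in non-immunized CD200+ cells, 5.84, 0.303, 1.65, 1.77 and 10.9 CPM in arthritic CD200+ cells, and 1.33, 7.46, 3.53, 36.1 and 4.04 CPM in CD105+ cells. The groups overlapped, and CD105+ library 13 stood alone at the top. The log2 difference between CD105+ and CD200+ cells in arthritis was 1.35 (SE 1.10, edgeR adjusted p = 0.494), and -0.001 without library 13.

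Per kilobase of exon, the 3 ligand genes can be compared with each other. Their summed level was 13.5 to 21.1 CPM per kb in non-immunized CD200+ libraries, 12.0 to 40.3 in arthritic CD200+ libraries and 0.929 to 9.68 in CD105+ libraries. Tgfb3 made up the largest share in all 4 non-immunized libraries, 52.2% to 86.9%. Tgfb2 made up 5.78% to 35.9% there and 23.9% to 90.3% of the sum in the arthritic CD200+ libraries, so these ranges overlap. Tgfb1 gave 0.248% to 9.68% in the arthritic CD200+ libraries and 10.9% to 86.3% in the CD105+ libraries. These 2 ranges did not overlap, although the sums behind the CD105+ shares were small. The non-immunized range of 7.28% to 12.7% overlapped both. The gap was set by arthritic library 5, where Tgfb3 was at 0, and by CD105+ library 10, with 6 Tgfb1 counts. No test was made on the shares.

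**Figure D2:**
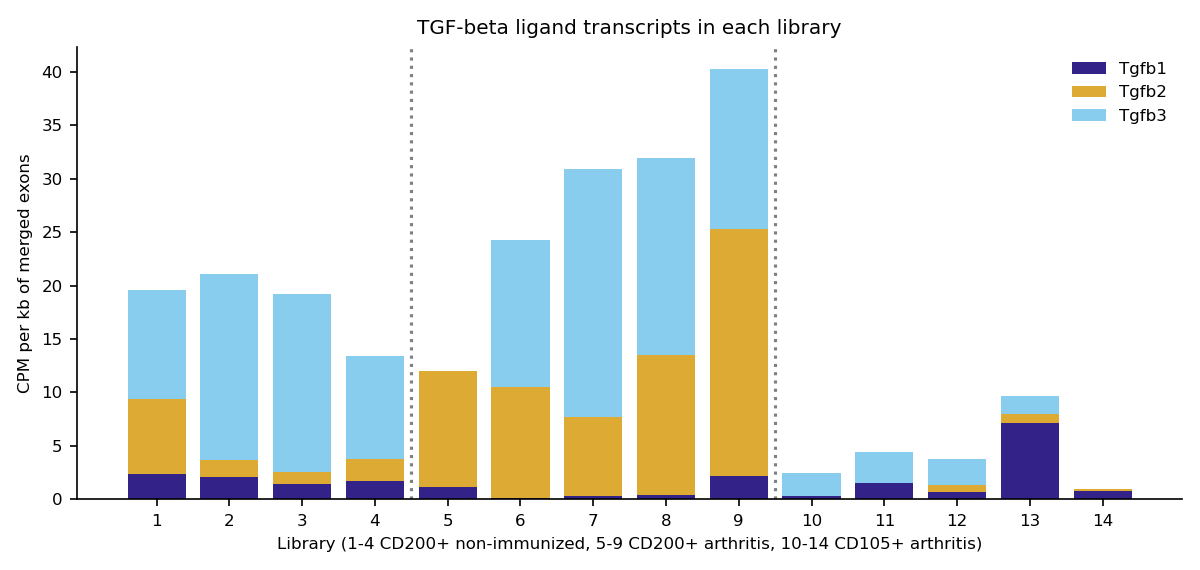
Level of the 3 ligand genes in each library (y axis: CPM per kb of merged exons, stacked; x axis: library number, dotted lines between groups). The stacks reach 40.3 in arthritic CD200+ library 9 and stay at or below 9.68 in the CD105+ libraries, where Tgfb2 adds little.

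The receptors and the co-receptor betaglycan fell together in CD105+ cells. Tgfbr1 (ENSMUSG00000007613, chromosome 4, 47353222 to 47414931, plus strand) encodes the type I receptor kinase. It was measured at 144, 29.8, 53.1 and 87.7 CPM in non-immunized CD200+ cells, 124, 40.6, 107, 57.8 and 98.5 CPM in arthritic CD200+ cells, and 16.4, 35.8, 6.58, 4.43 and 14.1 CPM in CD105+ cells. Every CD105+ library was below every arthritic CD200+ library, by a small margin for library 11. Tgfbr1 fell by 2.47 (log2, SE 0.62, edgeR adjusted p = 0.0220), and the call was lost without library 14 (adjusted p = 0.0541) and with spike-in library sizes (-0.90, adjusted p = 0.660), where the groups overlapped. The ranges of both CD200+ groups overlapped, with a log2 difference of 0.12 (SE 0.63, edgeR adjusted p = 1.0) whose sign turned with RLE factors.

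Tgfbr2 (ENSMUSG00000032440, chromosome 9, 116084293 to 116175360, minus strand) encodes the type II receptor that binds the ligand first. Its level was 176, 121, 125 and 36.7 CPM in non-immunized CD200+ cells, 66.6, 93.7, 75.1, 95.9 and 79.0 CPM in arthritic CD200+ cells, and 7.55, 22.6, 16.6, 16.0 and 21.2 CPM in CD105+ cells. The arthritic CD200+ libraries lay close together (82.1 ± 12.5 CPM, SD, n = 5), and all were above every CD105+ library. Tgfbr2 fell by 2.29 between the phenotypes in arthritis (log2, SE 0.44, edgeR adjusted p = 0.00562), past the threshold in each of the 10 runs that left out 1 library. Spike-in library sizes put it at -0.73 (edgeR adjusted p = 0.698) with overlapping groups, so that the call was lost.

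Tgfbr3 (ENSMUSG00000029287, chromosome 5, 107106570 to 107289629, minus strand), the betaglycan gene, had the smallest p of the 10 members between the phenotypes in arthritis. It stood at 408, 326, 452 and 400 CPM in non-immunized CD200+ cells, at 419, 117, 327, 243 and 211 CPM in arthritic CD200+ cells, and at 1.33, 29.0, 11.2, 6.65 and 18.5 CPM in CD105+ cells. The highest CD105+ library thus held 29.0 CPM and the lowest CD200+ library 117 CPM, with group means of 397 ± 52.3 (SD, n = 4), 263 ± 115 (SD, n = 5) and 13.3 ± 10.8 CPM (SD, n = 5). Tgfbr3 fell 19.7-fold between the phenotypes (log2 -4.30, SE 0.64, edgeR adjusted p = 0.00114), past the threshold in each of 10 runs that left out 1 library. The call was lost with spike-in library sizes (log2 -2.51, edgeR adjusted p = 0.195), where the groups overlapped. From non-immunized to arthritic CD200+ cells its log2 difference was -0.59 (SE 0.59, edgeR adjusted p = 1.0).

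Eng (ENSMUSG00000026814, chromosome 2, 32646595 to 32682669, plus strand) encodes the sort antigen CD105. Its mRNA was scarce in every library: 12.2, 7.63, 0.315 and 0.926 CPM in non-immunized CD200+CD105- cells, 0, 0, 1.35, 0.340 and 0.816 CPM in arthritic CD200+CD105- cells, and 0, 9.02, 9.92, 2.95 and 11.1 CPM in CD105+ cells. In arthritis 4 of 5 CD105+ libraries lay above every CD105- library, but library 10, sorted as CD105+, held 0 counts (3 counts would be 0.666 CPM). Non-immunized library 1, sorted as CD105-, held more Eng mRNA than every CD105+ library, and library 2, also CD105-, lay within their range. The log2 difference between CD105+ and CD200+ cells in arthritis was 3.64 (SE 1.64, edgeR adjusted p = 0.170), and DESeq2 called it (3.63, adjusted p = 0.0257). Since the sort used this protein, the difference is a check of the labels and no separate result. Exons of Eng overlap those of Fpgs on the opposite strand, which was measured at 33.3, 16.4 and 21.2 CPM in the 3 groups, and the reads of the 2 genes could not be told apart where they overlap.

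The latency proteins fell with the receptors. Ltbp1 (ENSMUSG00000001870, chromosome 17, 75005568 to 75392512, plus strand) encodes the LTBP that stores latent TGF-beta in the matrix. It was measured at 303, 455, 197 and 223 CPM in non-immunized CD200+ cells, 199, 118, 61.8, 32.9 and 44.0 CPM in arthritic CD200+ cells, and 0, 13.6, 0.858, 1.14 and 13.7 CPM in CD105+ cells. Each CD105+ library was below each arthritic CD200+ library, and only arthritic library 5 reached into the non-immunized range. Ltbp1 fell by 3.94 between the phenotypes in arthritis (log2, SE 1.04, edgeR adjusted p = 0.0272). This call was lost without library 12 (adjusted p = 0.0518), without library 13 (0.0586), and without the 3 libraries over 80% spike-ins (0.0996, log2 -2.94). It was also lost with spike-in library sizes (0.590, log2 -1.17), where the groups overlapped. The 2 CD200+ groups had means of 295 ± 116 (SD, n = 4) and 91.3 ± 68.8 CPM (SD, n = 5) for Ltbp1, and the log2 difference of -1.69 (SE 0.99, unadjusted p = 0.109, edgeR adjusted p = 1.0) did not pass the test.

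Ltbp3 (ENSMUSG00000024940, chromosome 19, 5740904 to 5758532, plus strand) encodes an LTBP that is known for its part in skeletal growth. Its level was 180, 206, 195 and 261 CPM in non-immunized CD200+ cells, 121, 99.2, 165, 214 and 191 CPM in arthritic CD200+ cells, and 10.7, 56.4, 24.9, 20.2 and 33.2 CPM in CD105+ cells. The highest CD105+ library stayed below the lowest CD200+ library, and Ltbp3 fell by 2.44 (log2, SE 0.41, edgeR adjusted p = 0.00236). On the spike-in scale it stood at -0.99 (edgeR adjusted p = 0.586), so the call was lost, and the groups overlapped. Arthritic and non-immunized CD200+ cells differed in Ltbp3 by -0.41 (SE 0.41, edgeR adjusted p = 1.0).

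Smad7 (ENSMUSG00000025880, chromosome 18, 75367529 to 75395935, plus strand) encodes the inhibitory SMAD that the pathway itself induces. It was measured at 5.67, 2.05, 20.5 and 0.752 CPM in non-immunized CD200+ cells, 3.02, 0, 18.6, 13.0 and 14.0 CPM in arthritic CD200+ cells, and 0, 4.66, 2.00, 0.682 and 2.13 CPM in CD105+ cells. Libraries 7, 8 and 9 were above every CD105+ library, and libraries 5 and 6, both over 80% spike-ins, were not. The log2 difference of -2.35 between the phenotypes in arthritis (SE 1.47, edgeR adjusted p = 0.348) did not pass the test.

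**Figure D3:**
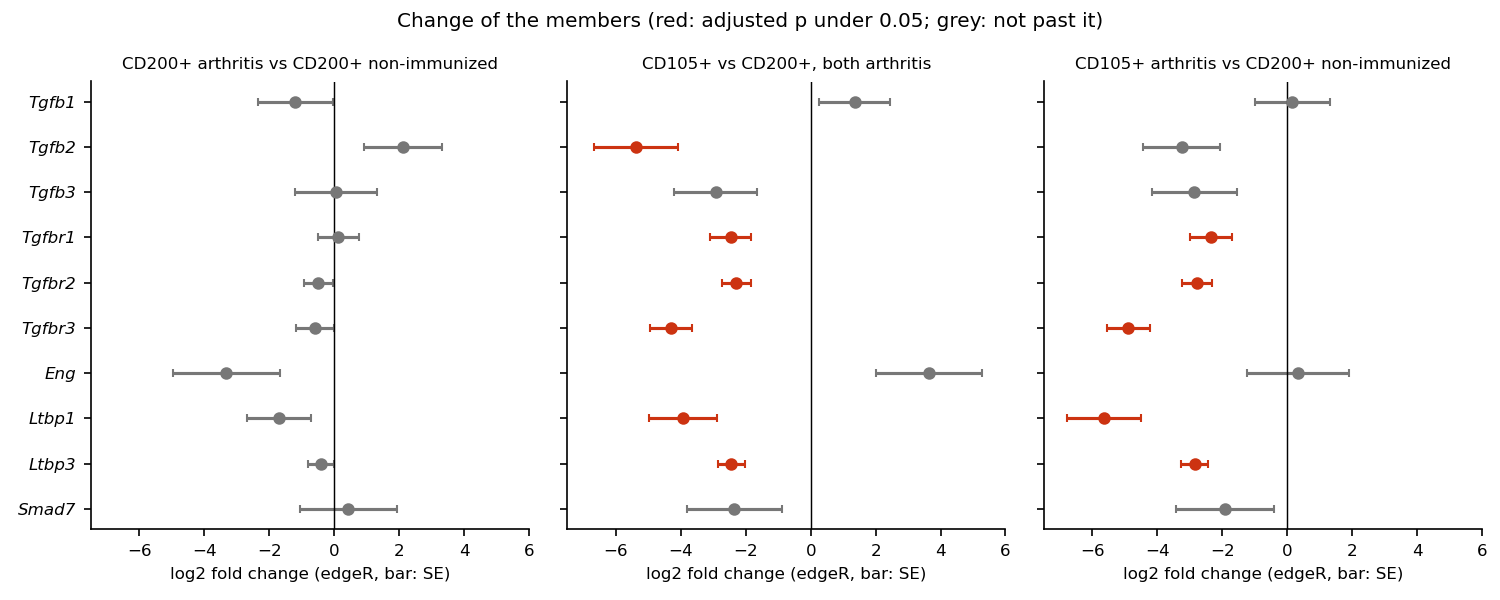
Log2 fold change (x axis, bars show the SE) of the 10 members in 3 comparisons from 1 edgeR fit; red points passed an adjusted p of 0.05. No point is red between the CD200+ groups, and 6 and 5 are red in the comparisons of CD105+ with arthritic and with non-immunized CD200+ cells.

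The comparison of CD105+ cells with non-immunized CD200+ cells differs in both phenotype and treatment and shares its libraries with the other 2 comparisons, so its values are only set beside them. Tgfbr1 (log2 -2.35), Tgfbr2 (-2.77), Tgfbr3 (-4.89), Ltbp1 (-5.64) and Ltbp3 (-2.85) passed the test there, 5 of 10 members, where 7.63% of all genes fell and 5.57% rose. Tgfb2 was at -3.25 (edgeR adjusted p = 0.0858). Tgfbr1 lost its call (adjusted p from 0.0535 to 0.0985) in 6 of the 9 runs that left out 1 library, namely library 1, 4, 10, 12, 13 or 14.

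Within a group the members can be ordered by level per kilobase. Tgfbr3 was the most abundant in both CD200+ groups, at 60.6 ± 8.00 CPM per kb (SD, n = 4) in non-immunized and 40.2 ± 17.6 CPM per kb (SD, n = 5) in arthritic cells. In the non-immunized group its range did not overlap that of Ltbp1, the next at 27.6 CPM per kb, while every later neighbour in that order overlapped, as did all neighbours in the other 2 groups. Ltbp3, Tgfb3, Tgfbr1, Tgfb2, Tgfbr2 and Ltbp1 followed in arthritic CD200+ cells between 17.4 and 8.54 CPM per kb, and Eng came last at 0.124 CPM per kb. In CD105+ cells Ltbp3 led with 3.21 ± 1.91 CPM per kb (SD, n = 5) and Tgfb2 was last with 0.306 ± 0.368 CPM per kb (SD, n = 5). Tgfbr1, Tgfb1, Tgfbr2, Tgfbr3 and Tgfb3 lay between 2.37 and 1.85 CPM per kb there.

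Most other genes of the pathway also lay lower in CD105+ cells than in CD200+ cells of arthritic mice. Of 71 genes in 5 lists, also chosen with earlier results of these data known, 64 were tested, 11 fell and 1 rose. Of the 64, 59 had a log2 change below 0, against 7687 of all 15015 genes. Their median was -2.29 against -0.05 over all genes. As with the members, the shares of all genes that fell and rose were 6.48% and 4.79%. With spike-in library sizes 0 of these 64 genes fell and 1 rose, so every fall named below was lost there. Setting the 2 genes with no count in a group to their bound left this median at -2.29.

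Of 13 SMAD partners and intracellular regulators, 4 fell and 0 rose, against 6.48% and 4.79% of all genes. Pmepa1, a target gene whose product restrains SMAD signalling, fell by 3.11 (log2, SE 0.46, edgeR adjusted p = 0.00102), from 118 to 226 CPM in arthritic CD200+ cells to 6.88 to 44.4 CPM in CD105+ cells. Skil, a SMAD corepressor gene, fell by 3.82 (edgeR adjusted p = 0.0158). Bambi, a pseudoreceptor gene, fell by 3.78 (edgeR adjusted p = 0.0421) although its groups overlapped. Tgif1, another corepressor gene, fell by 3.59 (edgeR adjusted p = 0.0465). All 4 are known as negative regulators of the signal.

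Of 19 tested genes for latency, storage and activation, 2 fell and 1 rose, against 6.48% and 4.79% of all genes. Ltbp4, a further LTBP gene, fell by 4.75 (log2, SE 0.88, edgeR adjusted p = 0.00478), from 255 to 323 CPM in arthritic CD200+ cells to 0 to 24.8 CPM in CD105+ cells. Itgb1, the integrin beta 1 gene, fell by 1.31 (SE 0.26, edgeR adjusted p = 0.00604). Nrros, which encodes a protein that tethers latent TGF-beta 1 on myeloid cells, rose (edgeR adjusted p = 0.0289). Nrros had 0 counts in all 5 arthritic CD200+ libraries and 6.88, 31.3, 24.8, 6.19 and 6.18 CPM in the CD105+ libraries, at least 262-fold higher if 3 counts over the CD200+ group are taken as its limit. It was also present in non-immunized libraries 1 and 4 (15.6 and 26.2 CPM), at 0 in libraries 2 and 3, and its call was lost in the runs without library 7, 8, 9 or 12. Macrophage and monocyte markers summed to 4870 CPM in CD105+ library 11 and to 4.22 to 13.9 CPM in the other 4 CD105+ libraries, and to 0 to 260 CPM in arthritic CD200+ cells. The 3 pan-leukocyte markers summed to 0, 178, 14.5, 9.72 and 2.21 CPM in CD105+ libraries 10 to 14. The part of such cells in the difference in Nrros was not tested.

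Among 8 tested related receptors, Bmpr2 (log2 -3.52, SE 0.58, edgeR adjusted p = 0.00225) and Bmpr1a (log2 -3.79, SE 0.90, edgeR adjusted p = 0.0163), type II and type I receptors for bone morphogenetic proteins, fell and 0 rose. Over all genes 6.48% fell and 4.79% rose. Of 6 tested activin-class ligands and inhibitors 0 passed the test, with Inhbb, an activin subunit gene, at -6.08 (SE 2.11, edgeR adjusted p = 0.0783). Of 18 tested genes known as TGF-beta targets, 3 fell and 0 rose, beside the same shares of all genes. Ccn1, a matricellular protein gene, fell by 4.66 (edgeR adjusted p = 0.0145). Cdkn1a, a cell cycle inhibitor gene, fell by 3.42 (edgeR adjusted p = 0.0168). Tagln, a gene of contractile cells, fell by 5.01 (edgeR adjusted p = 0.0469). Between the CD200+ groups 0 of the 64 genes passed edgeR's test. Of these 64, 49 were below 0, against 8138 of all 15015 genes. The median log2 difference there was -0.60 against -0.10 over all genes. DESeq2 called 2 of 71 pathway genes lower in arthritic CD200+ cells, Nrros (adjusted p = 0.00105) and Cdkn2b (adjusted p = 0.000750), and limma voom 0 of 64. Both genes had 0 counts in all 5 arthritic CD200+ libraries, and they are named here because DESeq2 called them.

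**Figure D4:**
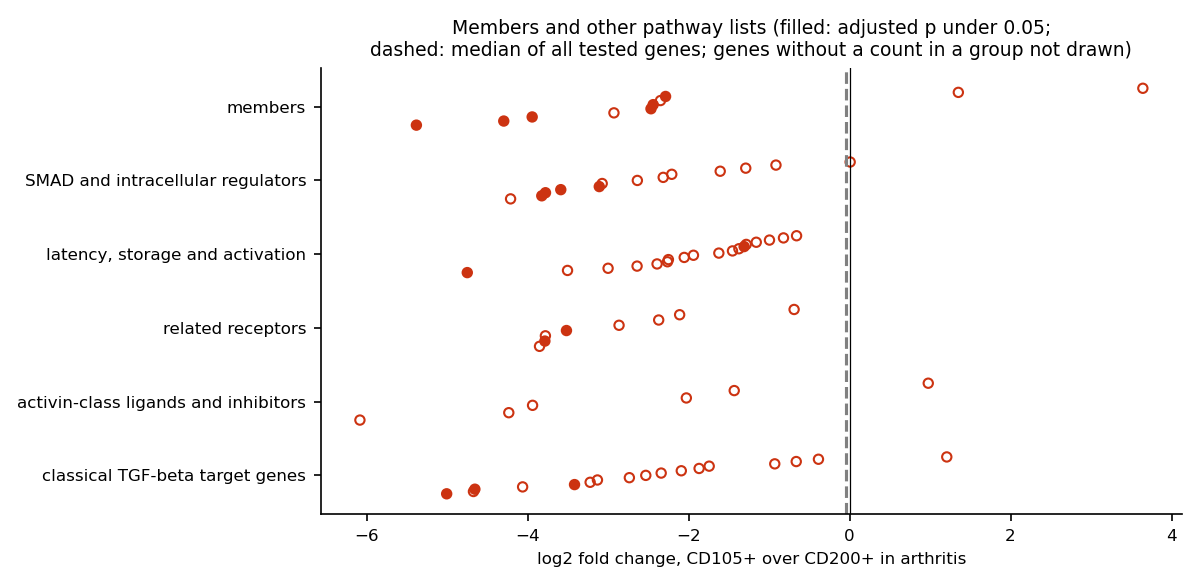
Log2 fold change of CD105+ over CD200+ cells in arthritis (x axis) for the 10 members and the tested genes of 5 other pathway lists (y axis); each point is a gene, filled where the adjusted p was under 0.05, and the dashed line is the median of all tested genes. Nrros and Cdkn2b, which had no count in arthritic CD200+ cells, are not drawn. Most points of every list lie left of the dashed line.

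Markers of cell types moved with this comparison. The 6 osteoblast markers summed to 7720 to 14600 CPM in non-immunized CD200+ cells and 95.8 to 5600 CPM in arthritic CD200+ cells. In CD105+ cells their sum was 1.05 to 39.1 CPM. Runx2 was at 0 in all CD105+ libraries and in arthritic CD200+ libraries 5 and 6. All 6 markers fell past the test between the phenotypes in arthritis, against 6.48% of all genes. Only 2 of 6 lay lower without overlap, against 6.33% of all genes. The 9 erythroid markers summed to 27300 to 247000 CPM in CD105+ cells and 47.1 to 10400 CPM in arthritic CD200+ cells. All 9 lay higher without overlap, against 10.4% of all genes, and 5 of 9 rose past the test, against 4.79% of all genes. Haemoglobin genes took 2.71% to 18.3% of gene counts in the CD105+ libraries, although the sort was for TER119- cells. The 6 fibroblast markers, known in synovial lining and stroma, summed to 697 to 4590, 554 to 6180 and 1390 to 7790 CPM in the 3 groups, with 0 of 6 past the test. Between the phenotypes in arthritis 5 of 6 had a log2 change below 0. Lum was at 0 in library 2, Prg4 in libraries 5 and 6, and Pdgfrb in library 10. Prg4 alone stood at 5494 CPM in library 11. The 5 mural markers summed to 47.3 to 452 CPM in arthritic CD200+ and 3.77 to 124 CPM in CD105+ cells, and 1 of 5, Notch3, fell past the test. Myh11 was at 0 in CD105+ cells but also in arthritic CD200+ libraries 5, 6 and 8. The 6 skeletal muscle markers summed to 212 to 825 and 0.444 to 14.0 CPM in these groups, and 2 of 5 tested, Pax7 and Des, fell past the test. Ckm, Myh4 and Pax7 were at 0 in CD105+ cells. Of these, Ckm was also at 0 in arthritic CD200+ libraries 5 and 6, and Myh4 in libraries 5, 6 and 9. The 7 endothelial markers stayed between 0.136 and 125 CPM in arthritic CD200+ and 11.8 and 35.8 CPM in CD105+ cells. The 5 chondrocyte markers summed to 127 to 3380 CPM in arthritic CD200+ cells, to 4830 CPM in CD105+ library 12, and to 0 to 6.03 CPM in the other 4 CD105+ libraries. The 3 pan-leukocyte markers summed to 0 to 2.18 CPM in arthritic CD200+ cells and to 0 to 178 CPM in CD105+ cells, highest in library 11. The part of these cell types in the members' differences was not tested.

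The calls depended on the scale on which RNA was compared. How many of the 200 to 500 cells each sample held, which bears on RNA per sample, is not stated per library. With spike-in library sizes the median of all genes between CD105+ and CD200+ cells in arthritis moved from -0.05 to 1.22, the genes that rose and fell changed from 719 and 973 to 390 and 155. Relative to the median of all genes on that scale, Tgfb2, Tgfbr1, Tgfbr2, Tgfbr3, Ltbp1 and Ltbp3 lay at -5.99, -2.12, -1.95, -3.74, -2.39 and -2.21. Of the 64 other pathway genes 1 rose, 0 fell and 48 were below 0 there. With TMM, and leaving out libraries 2, 5 and 6, 5 of 10 members fell, Ltbp1 being the exception. Of all 15843 genes tested in that setting, 1159 fell and 811 rose. In the comparison with non-immunized CD200+ cells, all genes that rose and fell numbered 836 and 1146 with TMM, 669 and 1430 with RLE factors, and 167 and 111 with spike-in library sizes, where 0 of 10 members passed beside 1.11% of all genes that rose and 0.739% that fell.

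**Figure D5:**
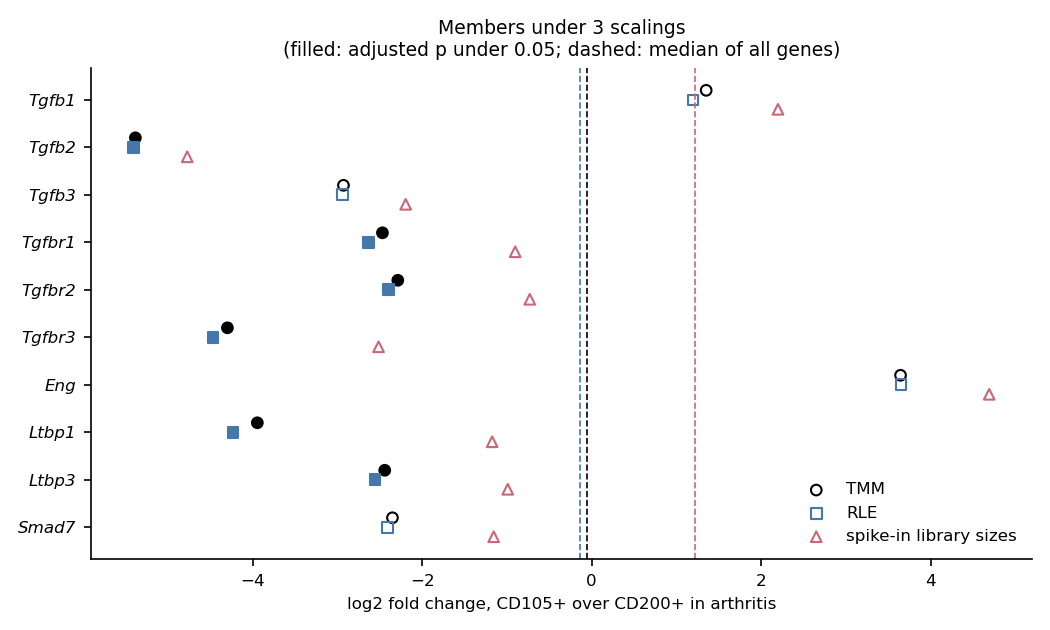
Log2 fold change (x axis) of each member between CD105+ and CD200+ cells in arthritis with TMM, RLE factors and spike-in library sizes; filled symbols passed an adjusted p of 0.05, and dashed lines are the median of all genes on each scale (-0.05, -0.14 and 1.22). The triangles of the spike-in scale lie to the right of the other symbols for all 10 members and none is filled, while the 8 members left of 0 with TMM stay left of 0.

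The genes whose levels followed the 6 called members most closely were sought among 12342 tested genes with a regular symbol, by Spearman's rho of log2(CPM + 1) over the 14 libraries, which share the split by phenotype and the depth of each library. The value over the 9 CD200+ libraries is given beside it. For Tgfb2 the closest were Sytl2 (rho 0.924 over 14 and 0.767 over 9 libraries), Chrna1 (0.919 and 0.817) and Popdc3 (0.911 and 0.900). Chrna1 encodes a muscle acetylcholine receptor subunit. Tgfbr2 was closest to Fam20c, a secretory pathway kinase gene (0.969 and 0.900), and to Clu (0.952 and 0.883). Tgfbr1 was closest to Sept10 (0.942 and 0.867) and Abcb1b (0.938 and 0.950). Tgfbr3 was closest to Slc30a4, a zinc transporter gene (0.955 and 0.833), and Dnm3 (0.947 and 0.817). Ltbp1 was closest to Atp9b (0.943 and 0.900) and to Skil, the SMAD corepressor gene described above (0.943 and 0.800). Ltbp3 was closest to the transcription factor gene Jund (0.952 and 0.883) and to Socs3, an inhibitor of cytokine signalling (0.952 and 0.867). These values describe the libraries and carry no test.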

How the data were processed

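Counts of reads per gene are the deposited unit, per the file headers, in whole numbers for 14 libraries, and 92 of its entries are spike-ins. Per the labels' protocols, the SMART-Seq v4 method amplified the cDNA and Nextera XT made the libraries. HISAT2, StringTie, cutadapt and edgeR (no version given) and the genome builds mm10 and GRCm38 are in the submitters' processing notes. The counting and its strand setting are not given in the sources used here. Symbols and positions are from GENCODE M21 (47310 of 47729 genes matched). The second deposited table repeats raw counts and was not used. The members, lists and naming rule were chosen with earlier results of these data known.

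Library sizes excluded spike-ins. edgeR 4.0.16 (filterByExpr, minimum count 10; TMM; 1 robust quasi-likelihood fit of 3 groups) gave two-sided tests with Benjamini-Hochberg adjustment over 15015 genes and a threshold of 0.05. SE is the absolute log2 change over the square root of F. Pathway and marker genes named were mostly among the 4 with the smallest p of their list, or are marker genes at 0 counts; for likeness, the closest of 5 genes were named. Alternatives were RLE factors, spike-in library sizes, all genes without a filter, only genes of at least 10 CPM in 4 libraries, only the 2 groups compared, DESeq2 1.42.0, limma 3.58.1 voom with sample weights, each library left out, and all 3 libraries over 80% spike-ins left out. Fits were tested on simulated data. Values of 1 other gene are not reported here. Pairs of libraries in a group differed by more than sampling noise. A fold against 0 counts uses 3 counts over the group, and limits of 0 cover counting error only.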

Additional observations from a re-analysis of the deposited data

Results flagged for a closer look

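Dixon's test for a single far value was applied to each member in each group, 30 checks in all, and marked 2 of them; chance marks about 1 in 20 groups. Tgfb1 stood at 36.1 CPM in CD105+ library 13, where the next library of that group held 7.46 CPM. Tgfb2 stood at 40.8 CPM in non-immunized CD200+ library 1, where the next held 11.8 CPM, and this library set the narrow gap to the arthritic CD200+ libraries.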

How the results depend on the processing

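Between CD105+ and CD200+ cells in arthritis, the members passing the test numbered 5 to 7 of 10 with every alternative but spike-in library sizes, where 0 passed, and in the runs that left out 1 library. In the comparison of CD105+ with non-immunized CD200+ cells they numbered 4 to 7, and 0 with spike-in library sizes. Between the CD200+ groups 0 members passed under every alternative. The strict filter did not keep Eng, so that it has no value there. The counts of all genes were 545 (spike-in library sizes), 3538 (DESeq2), 4624 (limma voom) and 1090 to 1713 (leaving out 1 library, lowest without library 14) against 1692 in the first comparison. DESeq2 was run on 25864 genes, and limma voom on 15015 as in the main fit, so both also called more of all genes. They were 278, 4060, 4993 and 1308 to 1762 against 1982 in the second, again lowest without library 14. Between the CD200+ groups edgeR called 0 genes, with 915 at an unadjusted p under 0.05, DESeq2 called 343, limma voom 4, and leaving out 1 library 0 to 2, the 2 without library 3. Of the 64 other pathway genes, 8 to 14 fell between the phenotypes in arthritis with the edgeR alternatives other than spike-in library sizes, 20 of 71 with DESeq2 and 38 with limma voom. Of all genes, 2173 of 25864 fell there with DESeq2 and 2513 of 15015 with limma voom.

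The sign turned for 5 differences, none of them past the threshold in any setting where it turned. Between the CD200+ groups, Tgfb3 was at -0.19 with RLE factors, -0.20 with DESeq2 and -0.18 to 0.40 with 1 library left out, against 0.06. Tgfbr1 was at -0.004, -0.032 and -0.18 to 0.59 in these settings and at -0.13 without the 3 libraries over 80% spike-ins, against 0.12. Between the phenotypes in arthritis, Tgfb1 ranged from -0.001 to 2.13 with 1 library left out. Between CD105+ and non-immunized CD200+ cells, Tgfb1 was at -0.20 with RLE factors, -0.20 with DESeq2, -0.28 with limma voom and -1.20 to 0.41 with 1 library left out, against 0.15. Eng was at -0.001 with DESeq2 and -0.03 to 1.25 with 1 library left out, against 0.33. The cause was not tested. Further calls gained were Tgfb3 with limma voom in both comparisons of CD105+ cells (adjusted p = 0.0205 and 0.0250) and Tgfb2 in that with non-immunized cells (0.0125 with DESeq2, 0.0134 with limma voom). Ltbp1 lost its call in arthritis in the fit of only the 2 groups compared (0.0575), and Tgfbr1 in the comparison with non-immunized cells without a filter (0.0557) and with only the 2 groups (0.0515). No paired analysis was possible because library numbers are unique to each sample. Low counts limit Eng, Smad7 and Tgfb1, which had at most 858 counts in any group. They also limit Tgfb2, Tgfb3 and Ltbp1 in CD105+ cells. There these genes had 127, 389 and 443 counts over 5 libraries, with 2, 1 and 1 libraries at 0.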
